A study of Mus musculus with 2 samples.

Results

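The nuclear genes of oxidative phosphorylation were described in DNase-seq maps of mouse urinary bladder. They were chosen by symbol alone, as autosomal protein-coding genes of the GENCODE M21 annotation whose symbols start with Nduf, Uqcr, Cox4i, Cox5, Cox6, Cox7, Cox8 or Atp5, together with Sdha, Sdhb, Sdhc and Sdhd. The rule gave 90 of 20698 autosomal protein-coding genes. It left out 3 X-linked genes with matching symbols, Ndufa1, Ndufb11 and Cox7b. The tissue came from female adult mice of the B6CASTF1/J cross, aged 18 to 20 months, with no treatment named in the labels. The series held 2 libraries of 1 group, given as biological replicates 1 and 2, and nothing in the labels says whether they came from separate animals, so the spread between them may be technical. No p-value was computed, since there was 1 group of 2 libraries. Bladder wall is a mixture of urothelium, smooth muscle, connective tissue and vessels, so a promoter open in few cells and one weakly open in many cannot be told apart.

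Oxidative phosphorylation is carried out in the inner mitochondrial membrane. Complexes I and II pass electrons from NADH and succinate to ubiquinone, complex III passes them on to cytochrome c, complex IV gives them to oxygen, and complex V, the ATP synthase, uses the resulting proton gradient to make ATP. A few subunits are encoded in mitochondrial DNA and the rest in the nucleus, and several nuclear genes of complex IV have a second version used mainly in heart and striated muscle, lung, testis or cells short of oxygen. NRF1, the ETS factor GABP (also called NRF2) and YY1 are the textbook regulators of these promoters.

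DNase I cuts DNA that is not wrapped in nucleosomes, and a peak is a region dense in cuts. A promoter was the stretch within 1 kb of any annotated transcription start site of a protein-coding transcript. Promoter signal was the highest deposited peak signal in that stretch, a cut count scaled by 1 factor per library whose meaning is not stated. A footprint is a short stretch inside accessible DNA that was cut less than its flanks. Replicate 1 had 84591 peaks and 176795 footprints, and replicate 2 had 112174 and 229390, while the total depth is unknown. In steps of the scaling factor, the member promoters held between 144 and 1231 counts in replicate 1 and between 190 and 1295 in replicate 2, and counting error alone was 8.33% and 7.25% at the lowest of these. Markers of urothelium had a promoter peak at 10 and 9 of 10 genes in replicates 1 and 2. Those of smooth muscle had one at 8 and 6 of 8 and those of fibroblasts at 5 of 5 in both. The share over all autosomal protein-coding genes was 65.5% and 67.8%.

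The letters that the results turn on are shown first. Here and below they are those of the mm10 reference, and alleles of the B6CASTF1/J cross may differ from them. A match counts as inside a footprint when it lies wholly in that footprint with 5 bp added on each side. The stretches below lie in member promoters and hold the NRF1 consensus, in capitals, inside a footprint of both libraries. They are those of the 8 members with the highest promoter signal among the members with such a match whose promoters are in the sequence table used here. Each is printed on the strand that carries the match, with mm10 coordinates. The Ndufa13 match lay far from the nearest start, at -679 bp (negative is upstream). The farthest of the others was that of Ndufaf4, at -108 bp.
Ndufa13 (chr8:69903223-69903251, plus strand): gcgcgccactGCGCACGCGtcctgtccct
Ndufa8 (chr2:36049349-36049377, plus strand): ctccagcgacGCGCAAGCGcactgctcta
Ndufa11 (chr17:56717693-56717721, minus strand): caaggcgtgcGCGCATGCGcgcagtgcag
Ndufaf4 (chr4:24897961-24897989, minus strand): ttccgcacagGCGCATGCGcagacatctg
Ndufaf5 (chr2:140170652-140170680, plus strand): agtcccgttgGCGCATGCGcctaatagaa
Cox6a1 (chr5:115349057-115349085, minus strand): cggataaagtGCGCAGGCGctggagttcc
Atp5g2 (chr15:102671071-102671099, minus strand): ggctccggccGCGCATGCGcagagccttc
Atp5c1 (chr2:10080431-10080459, minus strand): ctgagctcccGCGCACGCGcactgagtcc

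The next stretches hold the ETS consensus in capitals in a footprint of both libraries, with the same 5 bp added, for the 3 strongest promoters with such a match by the same choice. The match ran past the edge of the listed footprint at Ndufaf8 in replicate 2 and at Ndufa13 in both libraries. The Ndufa13 match lay 785 bp downstream of the nearest start.
Ndufaf8 (chr11:120098916-120098942, plus strand): gcgttcgactCCGGAAGaggcagggcc
Cox6a1 (chr5:115348958-115348984, plus strand): caccggcgcgCCGGAAGcggaaatggg
Ndufa13 (chr8:69901760-69901786, plus strand): ttgctgcgatCCGGAAGtcagtccctc

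The YY1 consensus lay in a footprint of both libraries at 1 member, Uqcrh, which encodes the hinge protein of complex III.
Uqcrh (chr4:116075350-116075377, plus strand): tgacctcttcAAGATGGCggcccgcggg

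Promoters of oxidative phosphorylation genes were accessible almost throughout, and the exceptions were all tissue isoforms. A promoter peak was present at 84 of the 90 members in each library, against a background of 65.5% (replicate 1) and 67.8% (replicate 2) over all autosomal protein-coding genes. The same 84 members had one in both libraries, which is 93.3% against 64.4% of all genes. No member had a peak in 1 library only, against 923 of all 20698 genes, which is a small share too. The 6 members with none were Cox4i2, Cox6a2, Cox7b2, Cox8b, Cox8c and Ndufa4l2. Each of the 82 members that is not a tissue isoform, complex I assembly factors included, had a promoter peak in both libraries. Genes of mitochondrial ribosomal proteins were alike in this respect, with 78 of 78.

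The members' promoters also carried more signal than the typical accessible promoter. Among the 84 with a peak, the median signal was 4.97 in replicate 1 and 5.76 in replicate 2 (5.36 ± 0.556, SD, n = 2). The same median over all 13332 genes with a promoter peak in both libraries was 3.42 and 3.72 (3.57 ± 0.213). Members were above the median of all genes in 68 of 84 cases in replicate 1 and in 65 of 84 in replicate 2. They spanned 1.23 to 10.5 in replicate 1 and 1.68 to 11.4 in replicate 2, so the group was far from uniform. The median of the mitochondrial ribosomal protein genes was lower, 3.92 ± 0.289, and that of the 78 genes with a peak among those with symbols of cytosolic ribosomal proteins was 5.86 ± 0.369. The plot of promoter signal by complex shows these values for every member.

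**Figure D1:**
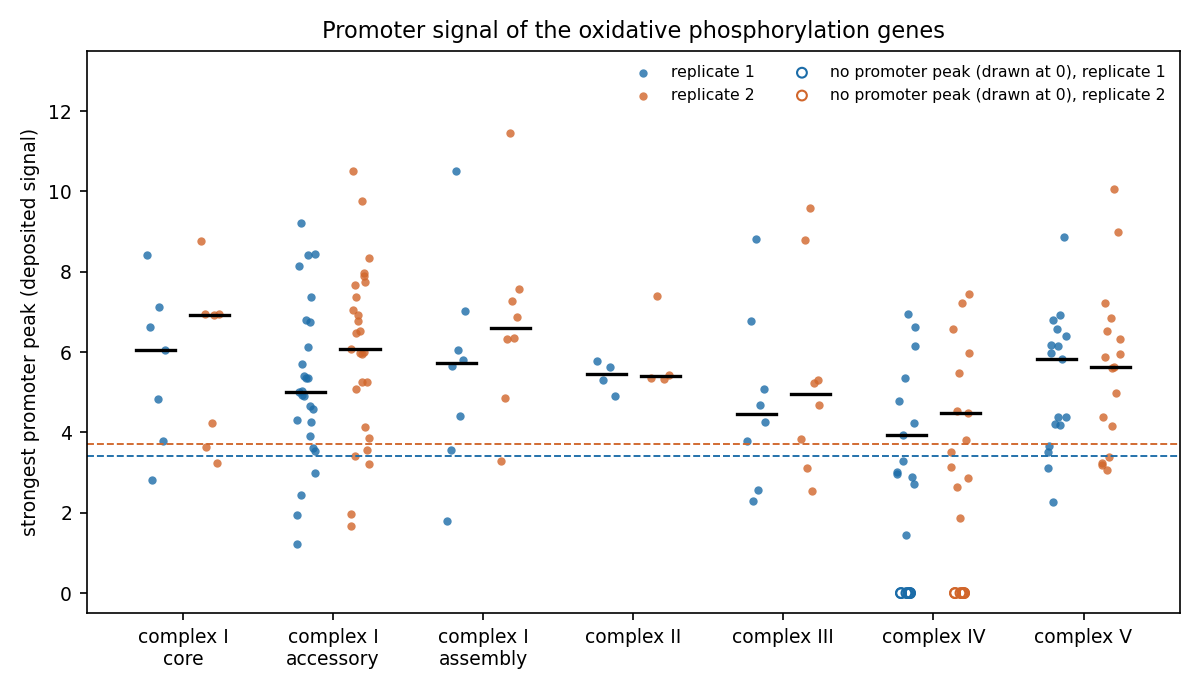
Promoter signal (vertical axis, deposited signal units) of every member by complex (horizontal axis), 1 point per gene and library; open circles at 0 are members with no promoter peak, short black lines are medians of members with a peak and dashed lines are the medians of all genes with a promoter peak in both libraries (3.42 and 3.72). All open circles lie in complex IV, and the median of members with a peak is above the dashed line of its library in every group.

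Complex I had the most members and the widest range. Its 7 core subunit genes, which encode the parts that bind flavin and iron-sulfur clusters, had a median of 6.49 ± 0.618. Ndufs1, the large iron-sulfur subunit, was highest among them at 8.42 and 8.76 in replicates 1 and 2. The lowest was Ndufs3 in replicate 1 at 2.81 and Ndufv2 in replicate 2 at 3.23. The 27 accessory subunit genes had a median of 5.54 ± 0.753. Ndufa7 reached 8.13 and 10.5 and Ndufv3 8.41 and 9.76, which lie above the core subunits in replicate 2 and near Ndufs1 in replicate 1. Ndufs1, Ndufa7 and Ndufv3 each shared their strongest peak with a divergent gene, Eef1b2, Rps28 and Wdr4. Ndufc2, at 1.23 and 1.68, and Ndufab1, the mitochondrial acyl carrier protein, at 1.94 and 1.96, were the lowest of the accessory group. Ndufc2 had less signal than most accessible genes, with 17.1% and 22.1% of genes with a peak below it.

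The 8 complex I assembly factors, which help to build the complex and are not part of it, had a median of 6.17 ± 0.622. Ndufaf8 held the highest signal of all 90 members, 10.5 and 11.4, above 97.8% and 98.8% of accessible genes. Its strongest peak was shared with the divergent gene Tepsin, whose start lay 197 bp away. Ndufaf4 followed at 7.03 and 7.57. Ndufaf1 was lowest at 1.80 and 3.29, so the range within the assembly factors was nearly that of all members.

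Complex II, succinate dehydrogenase, covered a narrow range. The flavoprotein gene Sdha stood at 5.78 and 5.36, the iron-sulfur subunit gene Sdhb at 5.62 and 5.34, and the membrane anchors Sdhc at 5.30 and 7.40 and Sdhd at 4.91 and 5.43. The 4 genes changed places between libraries, and Sdhc was below Sdha and Sdhb in replicate 1 and highest in replicate 2. Complex III had a lower median over its 8 genes, 4.71 ± 0.352. Uqcrq, a small subunit, was highest at 8.83 and 9.60, and the Rieske iron-sulfur protein gene Uqcrfs1 was next at 6.77 and 8.78. The core protein gene Uqcrc2 was lowest in replicate 2 at 2.54 and Uqcrb in replicate 1 at 2.30.

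Complex IV, cytochrome c oxidase, had the lowest median of the complexes. Its 11 broadly used subunit genes had a median of 4.24 in replicate 1 and 4.53 in replicate 2 (4.39 ± 0.209), below the 4.46 and 4.96 of complex III in both. Cox6a1 and Cox8a led with 6.94 and 7.22, and 6.62 and 7.45. Cox6b1 was the lowest of these in replicate 1 at 2.70, and Cox7c in replicate 2 at 2.63. The 17 genes of complex V had a median of 5.73 ± 0.132. Atp5g1, which encodes the c subunit of the rotor ring, was at 8.87 and 8.99, and Atp5b, the catalytic beta subunit, at 6.93 and 10.05. The other c subunit genes, whose mature proteins are identical, were lower and kept their order in both libraries, with Atp5g2 at 6.58 and 6.86 and Atp5g3 at 3.67 and 4.37. The alpha subunit gene Atp5a1, which pairs with beta in the catalytic head, had 3.10 and 3.18.

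The tissue isoforms were the part of the list without peaks. Of 8, 2 had a promoter peak in both libraries and 6 had none in either. Cox7a1, the heart and skeletal muscle isoform of subunit 7a, stood at 2.88 and 3.80, and its broad counterpart Cox7a2 at 5.36 and 5.47. The ratio of Cox7a2 to Cox7a1 was 1.65 ± 0.298 (SD, n = 2), and the values of the pair did not overlap. Cox6b2, known from testis, stood at 1.46 and 1.86 and Cox6b1 at 2.70 and 2.86, a ratio of 1.69 ± 0.225. Cox7a1 and Cox6b2 were thus each below their counterpart in both libraries.

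Isoforms with no peak had almost no weaker signal listed in their promoters. Within 1 kb of the start sites of Cox4i2, Cox6a2, Cox7b2, Cox8b and Cox8c, no base was listed in the deposited stretches with a cut-rate false discovery rate up to 0.05 and no footprint was found. At Ndufa4l2, 2 bases were listed in replicate 1, at 0.0491, and none in replicate 2. By contrast, the counterparts Cox4i1, Cox6a1, Cox8a and Ndufa4 had 3.02 and 3.14, 6.94 and 7.22, 6.62 and 7.45, and 4.24 and 4.49. Cox7b2 has no autosomal counterpart here, since Cox7b is X-linked.

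The nearest peaks to the closed isoforms lay just outside the window at some genes and far away at others. At Cox6a2, the muscle isoform of subunit 6a, a peak of 0.708 and 1.82 lay 1914 bp from the start in both libraries. At Ndufa4l2, induced by low oxygen in many cells, one of 0.802 and 0.733 lay 1794 and 1877 bp away. At Cox8b, another muscle isoform, the nearest was 2875 and 2031 bp away. At Cox7b2, known from testis, it was 151636 and 2365 bp away. At Cox4i2, found in lung and pericytes, and at Cox8c, found in testis, it was 11464 and 11433 bp and 13342 bp away. Markers of the cells in which the isoforms are known were open to different extents. Of 7 of striated and heart muscle, 3 had one in each library (2 of them in both), with a summed signal of 3.10 and 3.30 and none at Myh4, Myh6 or Mb. Those of pericytes had one at 3 and 4 of 5 genes, with sums of 3.77 and 3.77 and none at Higd1b. Those of germ cells had one at 1 and 0 of 4 genes, with Prm1, Tnp1 and Ddx4 at none. Those of brown fat, which also uses Cox7a1 and Cox8b, had one at 3 of 3 genes in both, with sums of 1.70 and 2.54. Those of hepatocytes, a cell type foreign to bladder, had one at 1 of 4 genes in each library. Over all autosomal protein-coding genes the share was 65.5% and 67.8%, and the pericyte counts were near it. The lists differ in length, so their sums cannot be set against each other. The part of these cell types in the isoform results was not tested.

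**Figure D2:**
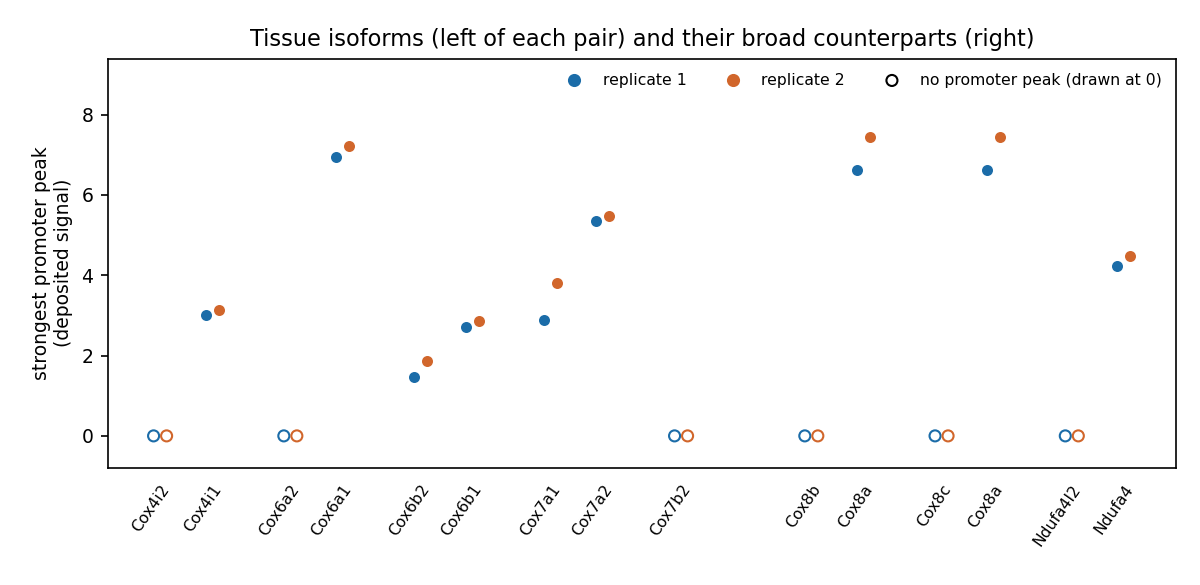
Promoter signal (vertical axis, deposited signal units) of the 8 tissue isoforms, left of each pair, and their broad counterparts, right, 1 point per library; open circles at 0 have no promoter peak. Only Cox6b2 and Cox7a1 have points above 0 on the left side, and both sit below Cox6b1 and Cox7a2.

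The bases before the start sites differ between these pairs in CpG content. CpGs are in capitals in the 150 bases before the start of the muscle isoforms Cox7a1, which had a peak, and Cox8b, which had none, and of their counterparts, from the RefSeq promoter table on GRCm38.p6, which is mm10.
Cox7a1 (chr7:30184021-30184170, plus strand): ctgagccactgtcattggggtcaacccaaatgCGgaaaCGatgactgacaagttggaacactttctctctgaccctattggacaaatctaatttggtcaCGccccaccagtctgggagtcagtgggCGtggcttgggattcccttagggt
Cox7a2 (chr9:79759854-79760003, minus strand): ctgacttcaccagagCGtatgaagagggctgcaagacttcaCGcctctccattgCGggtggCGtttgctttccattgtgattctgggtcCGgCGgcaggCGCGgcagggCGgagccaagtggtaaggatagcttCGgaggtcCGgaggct
Cox8b (chr7:140900447-140900596, minus strand): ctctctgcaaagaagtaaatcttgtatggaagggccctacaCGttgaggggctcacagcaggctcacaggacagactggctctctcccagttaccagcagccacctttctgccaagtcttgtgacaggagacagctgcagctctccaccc
Cox8a (chr19:7217617-7217766, minus strand): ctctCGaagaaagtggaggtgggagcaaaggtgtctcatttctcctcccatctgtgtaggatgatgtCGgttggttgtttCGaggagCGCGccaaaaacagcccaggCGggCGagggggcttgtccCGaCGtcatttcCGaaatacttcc
These stretches hold 4 CpGs in Cox7a1 against 11 in Cox7a2, and 1 in Cox8b against 10 in Cox8a. In the pair Cox6b2 and Cox6b1, not printed, the same stretch holds 7 against 12. Over windows of 300 bases, from 250 before to 50 after a start, 71 members had a promoter in that table, with 76 promoters in all. Their median was 19.5 CpGs, against 14 over all autosomal protein-coding promoters and 20 over those of genes with a peak in both libraries. Cox7a1 and Cox6b2, open with 7 and 10 CpGs in the window, lay well below the median of members. Of the isoforms without a peak, Cox7b2 had 10, as many as Cox6b2, and Cox8b had 2.

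Between the libraries, member promoters varied less than promoters in general. The log2 ratio of replicate 2 to replicate 1, centred on the median of all accessible genes, had a median of 0.06 over the members and an SD of 0.25, against an SD of 0.33 over all genes. The uncentred median of all genes was 0.07. Without centring, 61 of 84 members were higher in replicate 2, against 7860 of the 13332 genes with a promoter peak in both libraries. After centring, 50 members were higher in replicate 2 and 34 lower, and 82 of 84 (97.6%) lay within 1.5-fold, against 92.9% of all genes. Ndufaf1, with 1.80 and 3.29, and Ndufb10, with 4.65 and 7.98, were the members outside that range, with centred ratios of 0.80 and 0.71. Ndufs4 followed with 3.91 and 5.99, a ratio of 0.55. At the other end were Cox7c with 3.30 and 2.63 (-0.39), Atp5j with 4.21 and 3.38 (-0.38) and Ndufb5 with 9.21 and 7.68 (-0.33).

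The 8 complex I assembly factors were all higher in replicate 2, with a median centred ratio of 0.18. They were also all higher without centring, as were 7860 of the 13332 genes with a promoter peak in both libraries. In complex V, 11 of 17 were lower after centring, with a median of -0.05, but 9 of 17 were higher without it. With 1 library on each side, these are differences between libraries, and no test was possible.

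**Figure D3:**
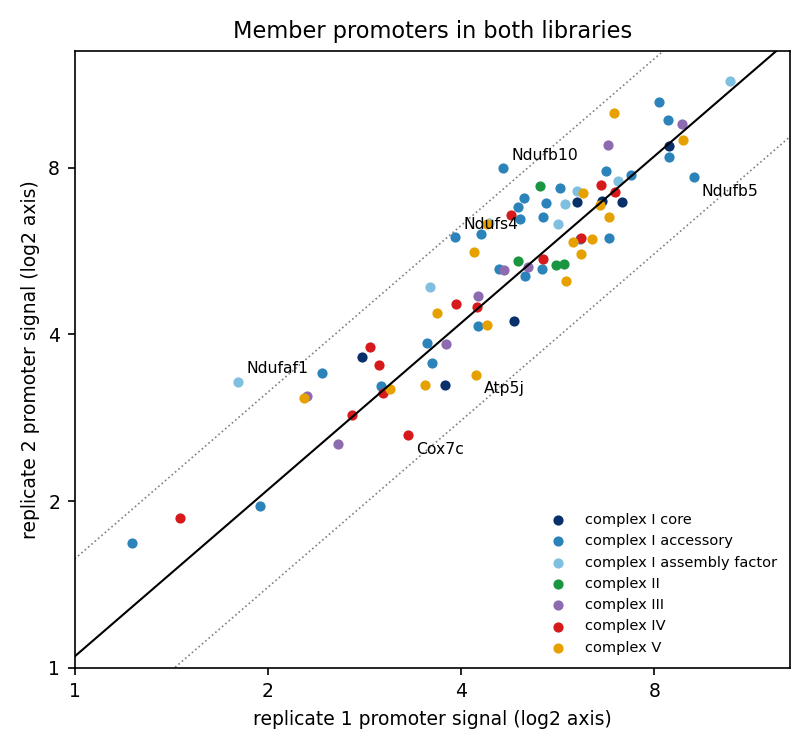
Promoter signal of the 84 members with a peak in replicate 1 (horizontal, log2 axis) and replicate 2 (vertical, log2 axis), coloured by complex; the solid line is the median ratio of all genes and the dotted lines are 1.5-fold from it. Ndufaf1 and Ndufb10 lie beyond the upper dotted line, and no member lies beyond the lower.

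Accessibility at the members was centred on the start site. The middle of the strongest promoter peak lay a median of 34 bp from the nearest start in replicate 1 and 35 bp in replicate 2 (34.5 ± 0.707, n = 2), against 62.5 and 64.5 bp over all genes with a peak. It lay within 200 bp at 75 and 78 of 84 members (89.3% and 92.9%), against 81.8% and 80.8%. Some members took their signal from a peak farther off. The strongest peak of Ndufa11 was centred at -736.5 bp, upstream of the start, in both libraries and beside Vmac, and that of Atp5f1 lay 768.5 and 748.5 bp inside the gene, beside Wdr77. At Ndufa13 the strongest peak differed between libraries, at -742.5 bp in replicate 1 and 867.5 bp downstream in replicate 2.

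Many of these peaks were also the promoter of another gene. At 32 of 84 members (38.1%) the strongest peak lay within 1 kb of a start site of another protein-coding gene, against 18.2% of all genes with a peak. By the nearest pair of start sites, 26 of the 32 had a divergent partner and 6 had one on the other strand whose first bases overlapped the member's. Of these 6, Ndufa13 also had a partner on its own strand. The median signal of shared promoters was 5.79 in replicate 1 and 5.92 in replicate 2, and that of unshared ones was 4.80 and 5.62, lower in both libraries. Over all genes the same medians were 4.997 and 5.147 for shared and 3.07 and 3.31 for unshared promoters.

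The partners included other genes of mitochondrial function. Ndufb5 and the mitochondrial ribosomal protein gene Mrpl47 had starts 20 bp apart, and Ndufs6 and Mrpl36 29 bp apart. Sdhd and Timm8b, which encodes an import chaperone of the mitochondrial intermembrane space, lay 98 bp apart. Atp5j and Gabpa, the gene of the DNA-binding subunit of GABP, lay 379 bp apart, and both took their value, 4.21 and 3.38, from a shared peak. Others paired with genes of translation, Ndufa7 with Rps28 at 10 bp and Ndufs1 with Eef1b2 at 3 bp. No partner was itself a member.

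Every member with a promoter peak also held footprints. At least 1 was present in both libraries at 84 of 90 members (93.3%), against 62.0% of all genes. Among genes with a promoter peak in both libraries it was 84 of 84 members, against 12826 of 13332 genes, so this share was close to that of accessible genes. The median number per promoter was 5 in replicate 1 and 6 in replicate 2, the same as over all genes, with a range of 2 to 16 and of 1 to 16. By the mean of both libraries Ndufa13 led with 16 and 13, ahead of Atp5g2 and Ndufa11 with 12 and 15 each and Ndufaf8 with 13 and 14. The 16 of replicate 2 were at Atp5j, which had 9 in replicate 1. The 512 and 581 footprints of the members had a median width of 11 bp. Of those in replicate 1, 71.5% overlapped a footprint of replicate 2, against 62.3% over all genes, and in the other direction the shares were 60.1% and 54.4%. They gathered near the start, with 61.9% and 60.4% within 100 bp, against 50.1% and 47.8% over all genes. Signal was higher at the members than over all genes, as given above, and its part in these shares and in the narrower ratios between libraries was not tested.

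**Figure D4:**
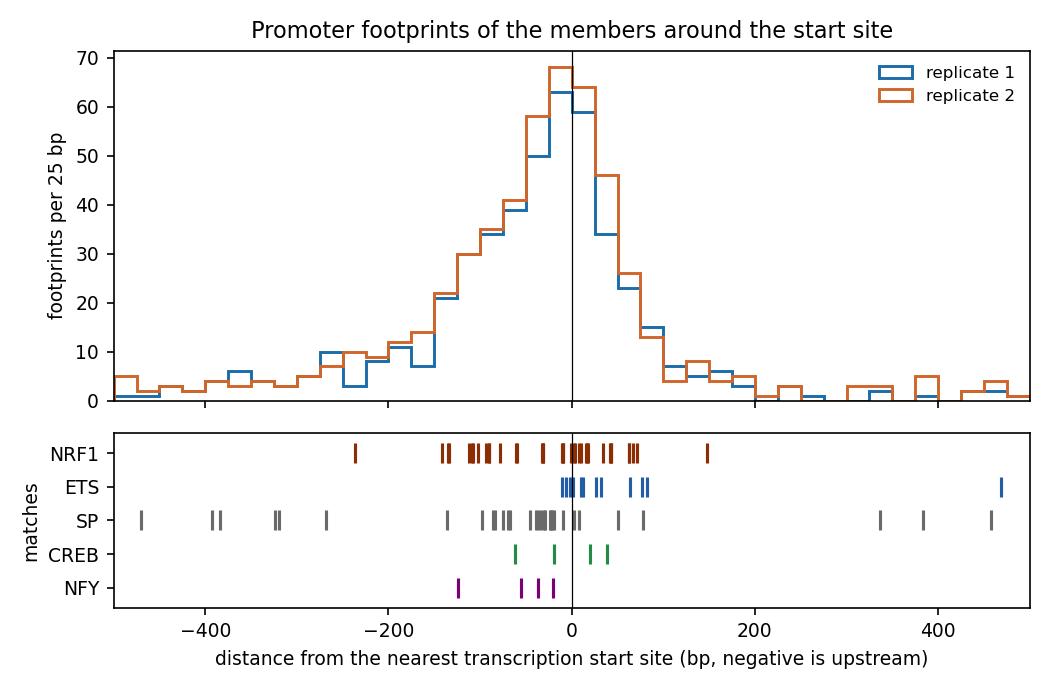
Upper plot, number of member footprints per 25 bp (vertical axis) by distance from the nearest start site in bp (horizontal axis) in each library; lower plot, positions of consensus matches that lie in a footprint of both libraries, 1 tick per match. Footprints peak at the start site, and matches farther than 500 bp away are outside the plot.

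The letters of 10 consensus motifs were searched on both strands. They were GCGCANGCG for NRF1 (N is any base), CCGGAAG for ETS factors, AAGATGGC for YY1, GGGCGGG for SP factors, AGCCAAT for NF-Y, TGACGTCA for CREB, CAAGGTCA for ERR, CTACAANTC for ZNF143, CACGTG for the E-box and TGANTCA for AP-1. No match overlapped one of another motif in the member promoters of the RefSeq table. There, 22 of 71 members (31.0%) held the NRF1 letters, against 10.2% of all 15680 genes in the table and 14.8% of those with a promoter peak. The ETS letters were in 18 (25.4%, against 13.6% and 19.1%) and the YY1 letters in 10 (14.1%, against 3.62% and 4.85%). ZNF143 letters were in 5 (7.04%, against 2.31% and 3.06%) and ERR letters in 4 (5.63%, against 1.51% and 1.30%). The SP letters went the other way, in 26 members (36.6%) against 38.7% of all genes and 52.6% of those with a peak. A match describes letters and is not evidence of a bound factor.

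Inside footprints, an NRF1, ETS or YY1 match was present in both libraries at 35 of the 90 members (38.9%), against 14.3% of all genes. NRF1 made up most of it, with 25 members (27.8%) against 8.87% of all genes and 13.8% of those with a peak in both libraries. ETS matches were footprinted at 14 members (15.6%, against 5.73% and 8.90%), and at 13 of them the same match was footprinted in both libraries. SP matches were footprinted at 25 members (27.8%), which is near the 25.04% of all genes and below the 38.9% of those with a peak. NF-Y and CREB matches were each footprinted at 5 members (5.56%), against 2.11% of all genes and 3.28% of those with a peak for NF-Y, and 2.46% and 3.83% for CREB. The YY1 match at Uqcrh, 1.11% of members, stood against 0.841% and 1.31%, a share near the background. ERR and AP-1 matches were in footprints of both libraries at no member, against 0.0580% and 0.638% of all genes. The shares of members are over all 90, the 6 without a promoter peak included.

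**Figure D5:**
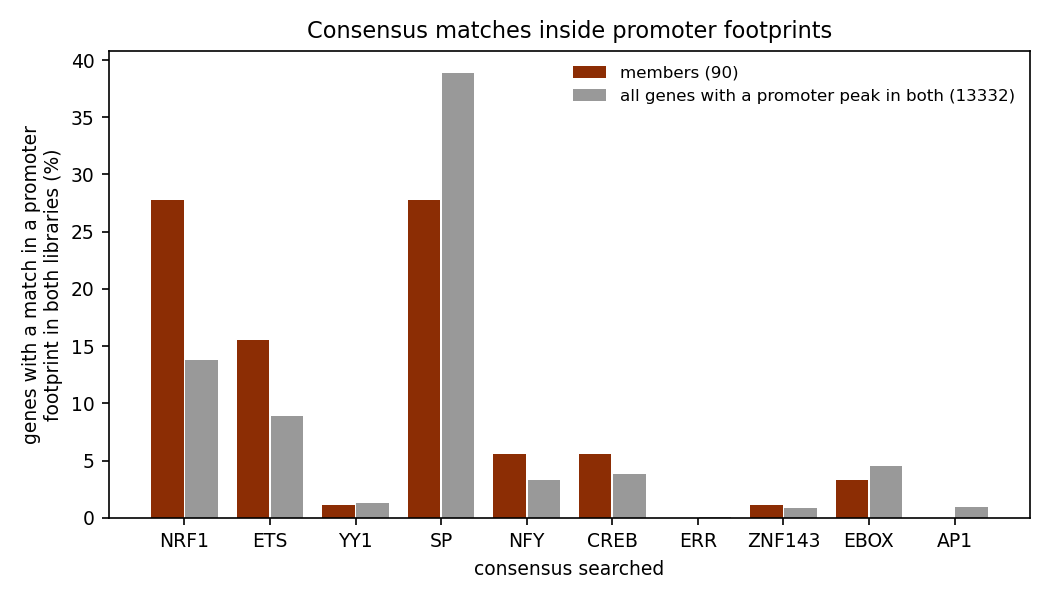
Percentage of genes (vertical axis) with a consensus match in a promoter footprint of both libraries, by motif (horizontal axis), for the 90 members and for the 13332 genes with a promoter peak in both libraries. The 90 members include 6 without a promoter peak. The member bar is the higher one for NRF1 (27.8% and 13.8%) and ETS (15.6% and 8.90%). It is also higher for NF-Y (5.56% and 3.28%), CREB (5.56% and 3.83%) and ZNF143 (1.11% and 0.848%), each at few members. For the other motifs it is the lower one, among them SP (27.8% and 38.9%).

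Footprinted NRF1 and ETS matches shared few members, and whether fewer than their separate counts would give was not tested. NRF1 alone was footprinted at 21 members, ETS alone at 9, both at Atp5k, Atp5l, Cox6a1 and Ndufa13, and ETS with YY1 at Uqcrh. At Ndufa13 the NRF1 matches lay between -848 and -679 bp and the ETS match at 785 bp, all far from the start. In complex I the core genes had ETS at 3 of 7, namely Ndufs1, Ndufs3 and Ndufs8, and NRF1 at 0, while the accessory genes had NRF1 at 9 of 27 and ETS at 2. Complex V had NRF1 at 8 of 17 and ETS at 4. In complex II, Sdha and Sdhd had NRF1, Sdhb had ETS and Sdhc had neither. Complex IV had either motif at 3 of 19 genes, 6 of which had no promoter peak, and the share is close to the 14.3% of all genes. Members with an NRF1 match in a footprint had a median signal of 5.35 in replicate 1 and 5.97 in replicate 2, and those without had 4.94 and 5.59, lower in both libraries. For ETS, members with a footprinted match had 4.96 and 5.32, and those without had 4.97 and 5.96, so these were not lower.

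The motifs differed in how often their letters lay in a footprint. Of 36 NRF1 matches in the member promoters of the table, 34 (94.4%) lay in a footprint of both libraries, against 74.4% of the 1998 matches in promoters of all genes with a peak. ETS matches did so at 9 of 21 (42.9%, against 33.4%) and SP matches at 14 of 31 (45.2%, against 44.7%). Most ETS and SP matches thus lay outside footprints called in both libraries, and most NRF1 matches inside them. Some NRF1 matches overlapped each other on opposite strands, as at Atp5k, and were counted separately. The part of the members' higher signal in these shares was not tested.

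The YY1 letters lay mostly just after the start. All 10 matches in the table lay on the strand of the gene, as 70.6% did in all genes with a peak, and 9 lay within the 50 bases after the start, against 54.0%. None of the 10 lay in a footprint of both libraries, although 8 lay in a peak of both, and a count of 0 of 10 allows a share of up to 30.0%, which includes the 16.8% of all genes with a peak. To show their place and direction, they are printed together, with the consensus in capitals and on the strand of the gene.
Atp5j (chr16:84835047-84835074, minus strand): aagtgtaggaAAGATGGCggagtcttag
Atp5j2 (chr5:145191501-145191528, minus strand): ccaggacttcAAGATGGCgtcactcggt
Ndufa3 (chr7:3617385-3617412, plus strand): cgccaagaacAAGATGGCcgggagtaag
Ndufa9 (chr6:126849098-126849125, minus strand): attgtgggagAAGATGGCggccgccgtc
Ndufaf8 (chr11:120098934-120098961, plus strand): ggcagggcccAAGATGGCggcgccctcg
Ndufb8 (chr19:44555387-44555414, minus strand): ggagaaggtgAAGATGGCtgccgcccgg
Ndufc1 (chr3:51408916-51408943, minus strand): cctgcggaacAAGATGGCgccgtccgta
Ndufs4 (chr13:114388042-114388069, minus strand): tgcctacaggAAGATGGCggcggtctca
Ndufs6 (chr13:73328432-73328459, minus strand): ggtcaccggcAAGATGGCggcggtgctg
Ndufs7 (chr10:80249463-80249490, plus strand): ggccgaggccAAGATGGCggcgctggcg
They begin between 10 and 38 bases after the start, apart from Atp5j, whose match begins at -88. The Uqcrh match printed above is not among them, since it lies outside these windows, with its middle at -292.5 and on the opposite strand to the gene. Of the 10 genes, 8 encode complex I subunits or assembly factors and 2 complex V subunits. Those of Ndufa3 and Ndufs7 lay in a footprint in replicate 2 only, and those of Atp5j and Ndufc1 in replicate 1 only. The matches of the other genes in this set were in a footprint of neither library, and that of Ndufaf8 also lay outside the peaks.

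Other genes of the pathway were mostly accessible too. Of 49 autosomal genes for electron carriers, assembly factors of other complexes, the ATP synthase inhibitor and regulators, 48 had a promoter peak in both libraries (98.0%, against 64.4% of all genes), and Sdhaf1, an assembly factor of complex II, had none. Their median signal was 4.76 in replicate 1 and 5.06 in replicate 2 (4.91 ± 0.216), below that of the members in both. The electron carrier gene Cycs, somatic cytochrome c, stood at 9.44 and 9.50, and Cyc1, the cytochrome subunit of complex III whose symbol the rule does not take, at 2.93 and 2.54. Among the 12 regulators Esrra, an orphan nuclear receptor of energy metabolism, was highest at 12.5 and 12.7. Nrf1 itself was at 3.54 and 3.38, Gabpa at 4.21 and 3.38 and Yy1 at 8.23 and 6.48. The coactivator Ppargc1a, at 0.682 and 0.813, and Esrrg, at 0.682 and 0.795, were the lowest regulators. Tfam, which packages mitochondrial DNA and takes part in its transcription, was at 5.30 and 6.23. The regulators were thus spread from far below to far above the members' median.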

How the data were processed

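DNase-seq was done on 2 urinary bladder libraries of 1 group. Peaks, footprints and stretches of significant cut rate are on mm10, per the file names of the deposited listing. For aligner and peak caller, names and versions: not given in the sources used here. The peak signal is the authors' deposited value, and 100% of peaks were whole multiples of 1 step per library (0.00853 and 0.00884) within a tolerance of 0.02. The deposited cut-rate stretches carry a false discovery rate on the p-value scale, listed up to 0.05, and the footprint lists carry 0.01 in every row, so footprints were not ranked. Libraries were never pooled.

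The longer peak list was used. Start sites came from GENCODE M21 and sequence from GRCm38.p6, with promoters from the RefSeq table for that build. Genes with several records under 1 symbol on 1 chromosome were joined, so 91 records gave 90 members. A peak or footprint belonged to a promoter when it overlapped the window of 1 kb by 1 bp or more. A footprint match lay wholly inside a footprint with 5 bp added on each side. Python 3.11.15, numpy 2.4.6 and pysam 0.24.0 were used, and the functions were tested on simulated data. Errors are SDs of 2 libraries. The alternatives changed the window, peak list, start sites, shared peaks, centring, footprint edges, or left out a library.

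The members and lists were chosen with earlier results of these data known. Named genes are the 2 strongest of each complex, the tissue isoforms with their counterparts, the members with extreme ratios between libraries, the most footprints or the most distal peaks, the 4 succinate dehydrogenase genes and the strongest with footprinted NRF1, ETS or YY1 matches. The text also names members picked after seeing their values, among them those with the lowest signal, those with distant or shared peaks, Atp5g3, Atp5a1 and the genes with YY1 letters. So were the other pathway genes given with values. A result that the rule takes is left out of the text. Promoter sequence of 19 members was not used here.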

Additional observations from a re-analysis of the deposited data

How the results depend on the processing

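No paired analysis was possible because the libraries form 1 group. Of 47 alternatives for 8 results, 42 left the value as it was within the spread between libraries or, for counts, within 1.5 times. The share of members with a promoter peak in both libraries fell from 93.3% to 58.9% (53 members) when peaks within 1 kb of another gene's start were left out, against 53.9% of all genes. With the promoter peaks of a gene summed, the median signal was 5.95, against 4.71 over all genes, and the ratio of these medians fell to 1.26 from 1.503. With a window of 2 kb, 4 tissue isoforms had a peak, Cox6a2 and Ndufa4l2 being added. Without centring, the median log2 ratio was 0.13. With the nearest peak in place of the strongest, the median distance was 29.5 bp. With 500 bp, only Atp5f1 was lost. With no bases added to footprints, 25 members held an NRF1, ETS or YY1 match in both libraries (27.8%, against 9.46% of all genes), and with a match in either library 43 (47.8%, against 19.1%). Using 1 library at a time, the share stayed at 93.3%, the median signal was 4.97 to 5.76, the isoforms with a peak 2, the members with a footprint 84, those with an NRF1, ETS or YY1 match 38 to 40, the distance 34 to 35 bp and the other pathway genes 48. The total depth is unknown, so a missing peak means that none was listed.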

Other observations

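Outside promoters, within the gene body and 10 kb on either side, 50 of 90 members (55.6%) had a peak in replicate 1 and 69 (76.7%) in replicate 2, against 63.3% and 72.3% of all autosomal protein-coding genes. The median was 1 peak per member in both libraries. Atp5o, the ATP synthase stalk subunit gene, had the most, 16 and 21, but the annotation gives it 2 records under 1 symbol, and the second makes the region counted much longer than at other members. Next by the mean of both libraries were Sdhb with 4 and 9, and Atp5h with 5 and 7 tied with Ndufaf2 with 4 and 8.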
